A study of Homo sapiens with 8 samples.

Results

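The NDRG (N-myc downstream-regulated gene) family has 4 members in the human genome, NDRG1, NDRG2, NDRG3 and NDRG4, and all 4 were found by gene symbol among the 54261 genes of the count table. They were chosen because of how they behaved in the hypoxia comparison of these same libraries, in which NDRG1 was induced, so their hypoxia values are given as a description and carry no test. Total RNA depleted of ribosomal RNA had been sequenced from 8 cultures, 1 library each. Of the 3 groups, 2 were untreated, namely the normal intestinal epithelial lines NCM460 and HIEC6 (n = 2) and the colorectal carcinoma (CRC) lines DLD1, HCT116 and HCT8 (n = 3), and the third group was the same 3 CRC lines under hypoxia (n = 3). All lines were at passage 5 in DMEM with serum, and the oxygen level and the duration of hypoxia are not given in the sources used here. Each line under each treatment was thus a single library, and the replicates of a group are different cell lines, not repeated cultures of one line.

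NDRG proteins share an α/β-hydrolase fold that lacks catalytic activity, and their genes are known for responding to stress and differentiation. NDRG1 is a classical target of the hypoxia-inducible factors, is repressed by MYC and MYCN, and its protein is phosphorylated by SGK1 and then by GSK3. NDRG3 is better known for its regulation as a protein, since the prolyl hydroxylase PHD2 marks it for degradation through VHL when oxygen is present and lactate stabilises it when oxygen is low. NDRG2 and NDRG4 are described as growth-restraining genes whose promoters are often methylated in colorectal cancer.

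The library totals lay between 45519306 and 57374239 counts, so that the floor of 3 counts lay at 0.0523 to 0.0659 CPM (each count scaled per 1000000 counts of its library). Of the 3 hypoxia libraries, 0 shared a run label with an untreated CRC library, so run and treatment cannot be told apart. NCM460 shares a second run label with the hypoxia libraries of DLD1 and HCT116. Across genes NCM460 resembled HCT116 (Pearson's r = 0.994) as closely as libraries of one line resembled each other (0.98 to 0.994), although the labels name one a normal and the other a CRC line. Intestinal epithelial markers summed to 4551 to 14076 CPM, carried mainly by keratins, and 6 to 10 of the 10 had over 3 counts. The library labelled HIEC6 carried little RNA of the epithelial markers EPCAM (0.176 CPM), CDH1 (3.03 CPM), KRT19 (0.987 CPM) and CDX2 (0.0529 CPM). Its KRT8 and KRT18 were high (4290 and 3725 CPM), and its epithelial markers summed to 8019 CPM. The summed level of 8 mesenchymal markers in HIEC6 was 1416 CPM against 11.6 to 165 CPM in the other 7 libraries, most of it from VIM (1223 CPM). Neural markers were checked because the extraction text of the labels names a brain region, and GFAP and NEFL had 0 to 5 counts in every library, while the 8 neural markers summed to 21.9 to 300 CPM, mostly from MBP and SYT1 (SYT1 reached 159 CPM in HCT116 under hypoxia).

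RefSeq promoter windows of GRCh38.p14, from 250 bases before to 50 bases after a start site, were at hand for NDRG2 (5 windows) and NDRG4 (4 windows). They were searched on both strands for ACGTG and GCGTG, the core letters bound by hypoxia-inducible factors. NDRG2 had 2 distinct matches, in 3 of its 5 windows, and NDRG4 had 4, in 1 of its 4 windows. Of all 35116 windows 48.4% held at least 1 match, and 52.4% of genes had a match in any window, so a match is common. The sequences are given so that the letters around each match can be seen in the paralogs for which windows were at hand. Capitals mark the core letters or their reverse complement, each sequence is on the strand of its gene, and the first capital lies at the stated position relative to the start site.
NDRG2 chr14:21025163-21025192, minus strand, position -75: gtgaaaggggggGCGTGtttactgggggtc
NDRG2 chr14:21071010-21071039, minus strand, position -155: ctctggcagtgtCACGCcccctggtactgt
NDRG4 chr16:58463540-58463569, plus strand, position -163: gaaggcggaagcCACGCgcgagggaccgcg
NDRG4 chr16:58463624-58463653, plus strand, position -79: acccgccaaaccCACGCgggcacgcccccg
NDRG4 chr16:58463686-58463715, plus strand, position -17: tgcagccgcgggCACGCggaggggctcctg
The first NDRG2 match lies in 2 overlapping windows, and its position is that in the window chr14:21025056-21025355. The remaining NDRG4 match, at position -71, lies within the second of its printed sequences. All 4 NDRG4 matches fell in the same window, and the other 3 NDRG4 windows held none.

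NDRG1 stood at 30.5 CPM in untreated DLD1, 150 CPM in HCT116 and 49.1 CPM in HCT8. Under hypoxia it stood at 309 CPM in DLD1, 4026 CPM in HCT116 and 1175 CPM in HCT8, from 17737, 223010 and 53506 counts. All 3 hypoxia libraries lay above all 3 untreated ones, with the lowest hypoxia library (DLD1) above the highest untreated one (HCT116). Such a separation was seen in 3.06% of the 21045 genes tested, and it is the behaviour for which NDRG1 was chosen. The summed mesenchymal markers stood at 11.6 CPM untreated and 93.2 CPM under hypoxia in DLD1, at 36.7 and 165 CPM in HCT116 and at 15.3 and 24.8 CPM in HCT8. In HCT8 single markers went both ways, with PDGFRB at 3.67 and 8.46 CPM but VIM at 1.03 and 0.220 CPM. Their part in the NDRG1 values was not tested.

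Scaled by column totals, NDRG1 was 10.1-fold higher under hypoxia in DLD1 (95% counting interval 9.62 to 10.7), 26.9-fold higher in HCT116 (26.3 to 27.5) and 23.9-fold higher in HCT8 (23.0 to 24.9). Averaged over lines, the log2 ratio was 4.22 ± 0.77 (SD, n = 3), a geometric mean of 18.7-fold. The intervals are exact binomial ones that cover counting error only, and reads without molecular identifiers are not independent molecules. The NDRG1 intervals of the 3 lines did not overlap, and DLD1 had the lowest ratio. With 1 library per line and treatment the difference between lines could not be tested.

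**Figure D1:**
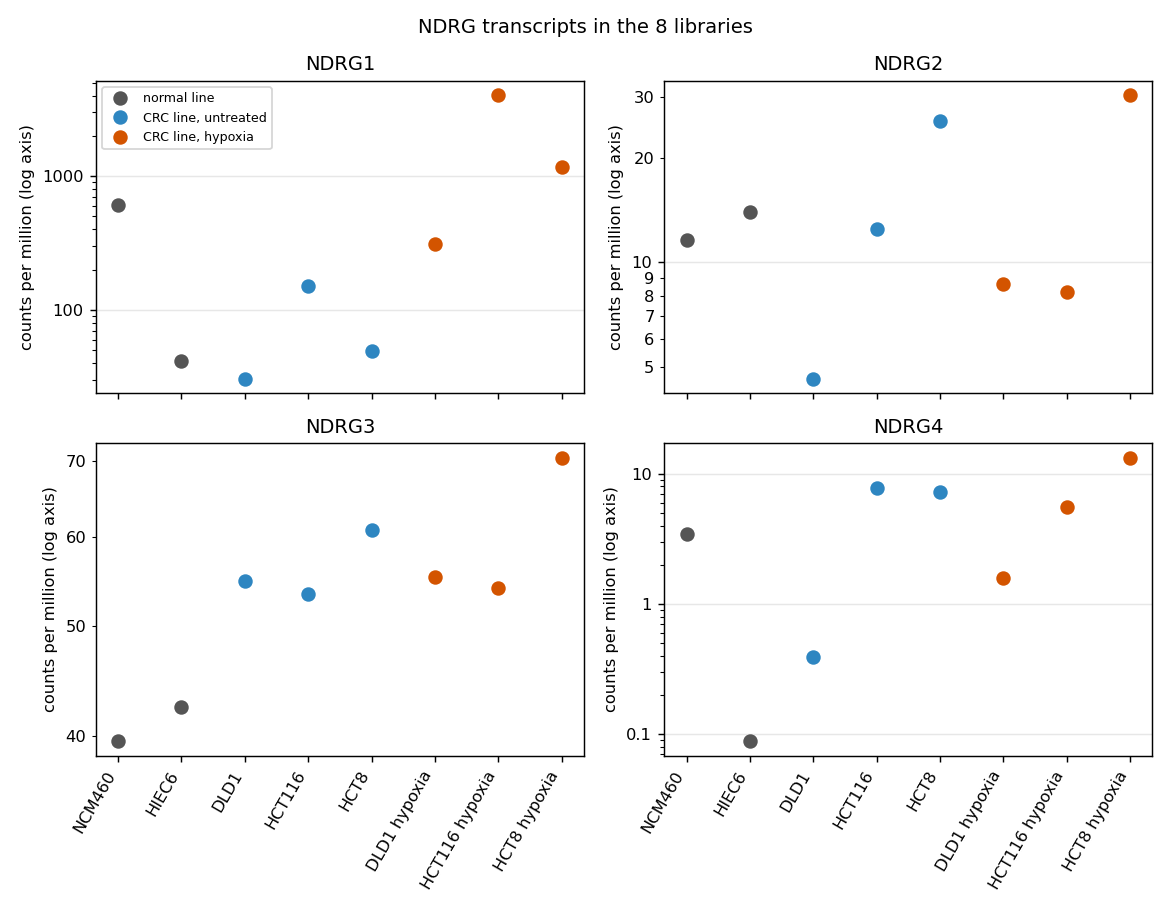
CPM (log axis) of the 4 NDRG members in each of the 8 libraries, 1 point per library, coloured by group; each panel has its own axis range. NDRG1 lay between 309 and 4026 CPM in the 3 hypoxia libraries and between 30.5 and 150 CPM in the untreated CRC lines, while the points of its 3 paralogs overlap between these groups.

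The scaling of HCT116 under hypoxia matters for every member. The trimmed mean of M-values (TMM), which scales libraries so that most genes stay level, gave this library a factor of 0.771, and the median gene of HCT116 moved by -0.22 on the log2 scale by column totals but by 0.01 by TMM. By TMM the NDRG1 ratio in HCT116 was 34.4, and in DLD1 and HCT8 it was 10.4 and 24.1. Whichever scale was used, NDRG1 was the gene with the 4th highest log2(CPM + 1) difference of 19642 genes in DLD1, the 5th of 19846 in HCT116 and the 4th of 20091 in HCT8.

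By column totals NDRG3 had the ratio nearest to 1 of the 4 transcripts in each CRC line. In HCT8 its interval (1.10 to 1.22) overlapped that of NDRG2 (1.10 to 1.28). By TMM NDRG2 and NDRG4 moved less in HCT116, with log2 ratios of -0.25 and -0.12 against 0.38 for NDRG3. NDRG3 stood at 54.8, 53.4 and 60.8 CPM in untreated DLD1, HCT116 and HCT8 and at 55.3, 54.0 and 70.4 CPM in the same lines under hypoxia. The groups overlapped, and the level in each hypoxia library was within 1.16-fold of its own untreated line. The ratio by column totals was 1.01 for DLD1 (0.959 to 1.06), 1.01 for HCT116 (0.962 to 1.07) and 1.16 for HCT8 (1.10 to 1.22), so a change was not detectable beyond counting error in the first 2 lines. By TMM the HCT116 ratio became 1.30 (1.23 to 1.37), as the median gene of that library shifted with the scale. The mean log2 ratio was 0.08 ± 0.11 by column totals and 0.21 ± 0.16 by TMM (SD, n = 3). By column totals only 2.98% of genes in DLD1 and 2.21% in HCT116 moved less than NDRG3 on the log2(CPM + 1) scale, whereas 35.5% did in HCT8, and by TMM the shares were 11.2%, 47.1% and 38.6%.

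NDRG2 was higher under hypoxia in 2 lines and lower in the other. Untreated DLD1, HCT116 and HCT8 stood at 4.61, 12.5 and 25.5 CPM, and the same lines under hypoxia at 8.64, 8.20 and 30.3 CPM. The ratios by column totals were 1.88 (1.60 to 2.20), 0.657 (0.581 to 0.741) and 1.19 (1.10 to 1.28). Each of these intervals excludes 1, with DLD1 and HCT8 above it and HCT116 below it. The same held by TMM, where the HCT116 ratio was 0.842 (0.745 to 0.95). All of them compare single libraries and cover counting error only, so they are no test of a response to hypoxia. The mean log2 ratio over lines, 0.18 ± 0.76 by column totals, was smaller than its SD. Differences between lines exceeded differences with treatment for this gene: HCT8 was the highest and DLD1 the lowest of the 3 untreated lines, and their ratio was 5.54.

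NDRG4 had the fewest counts of the family, so its values are the least precise. Untreated DLD1 had 20 counts (0.391 CPM), HCT116 407 counts (7.79 CPM) and HCT8 382 counts (7.25 CPM), and under hypoxia the same lines had 91 (1.59 CPM), 309 (5.58 CPM) and 605 counts (13.3 CPM). The DLD1 ratio was 4.06 (2.48 to 6.96) and the HCT8 ratio 1.83 (1.61 to 2.09), both above 1. HCT116 went the other way by column totals, at 0.716 (0.616 to 0.832), but its interval by TMM, 0.789 to 1.07, includes 1. NDRG4 in DLD1 under hypoxia remained below its level in the 2 other untreated lines, and the mean log2 ratio was 0.80 ± 1.25 (SD, n = 3).

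**Figure D2:**
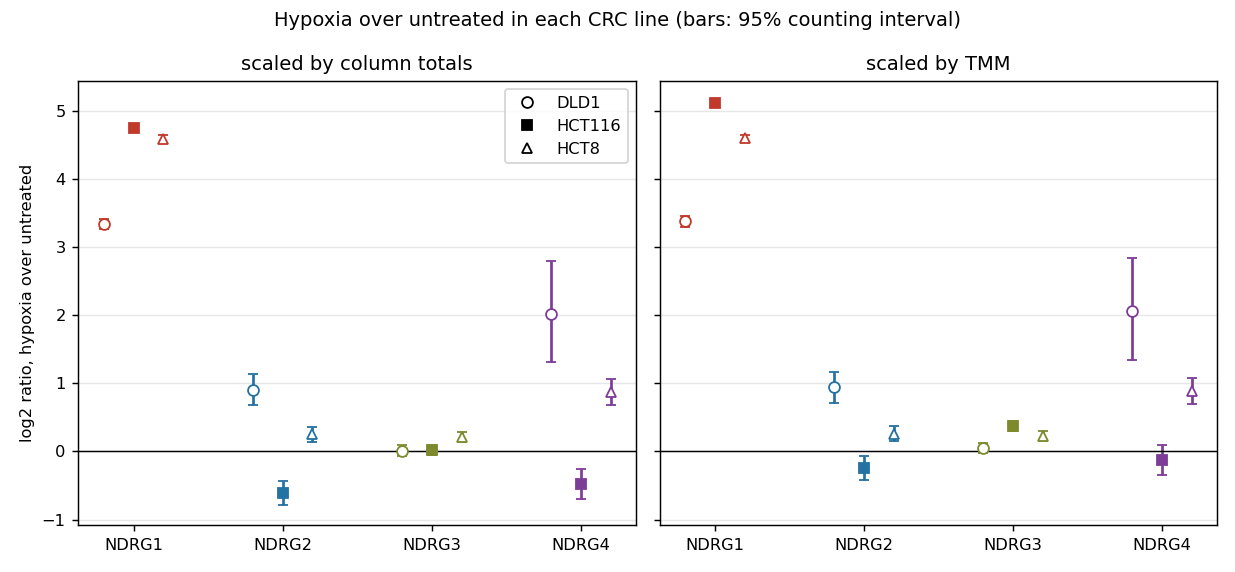
log2 ratio of hypoxia over untreated for each NDRG member in DLD1, HCT116 and HCT8, scaled by column totals (left) and by TMM (right); bars are 95% exact counting intervals, which are smaller than the symbol for NDRG1. NDRG1 lay between 3.34 and 5.11 in every line on both scales, NDRG3 stayed within 0.38 of 0, and NDRG2 and NDRG4 were above 0 in DLD1 and HCT8 and below 0 in HCT116.

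In the fit over all genes, which used edgeR's quasi-likelihood model on the 6 CRC libraries, the fitted log2 fold changes (hypoxia minus untreated) were 4.87 for NDRG1, 0.22 for NDRG2, 0.22 for NDRG3 and 0.49 for NDRG4. With the cell line as a block they were 4.37, 0.31, 0.21 and 0.86. NDRG1 ranked 35th from the top of 21045 genes without the block and 47th with it. The paralogs NDRG2, NDRG3 and NDRG4 lay above 61.3%, 61.3% and 75.8% of genes without the block and 68.3%, 62.7% and 86.9% with it. In single lines (DLD1, HCT116 and HCT8, column totals, log2(CPM + 1) scale) 95.3%, 61.0% and 40.4% of genes moved less than NDRG2. For NDRG4 these shares were 96.8%, 50.6% and 87.9%. With a whole line left out of the blocked fit, the NDRG1 value was 4.85 without DLD1, 3.97 without HCT116 and 4.24 without HCT8. The fitted median of all genes was 0.06 without the block and 0.03 with it.

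**Figure D3:**
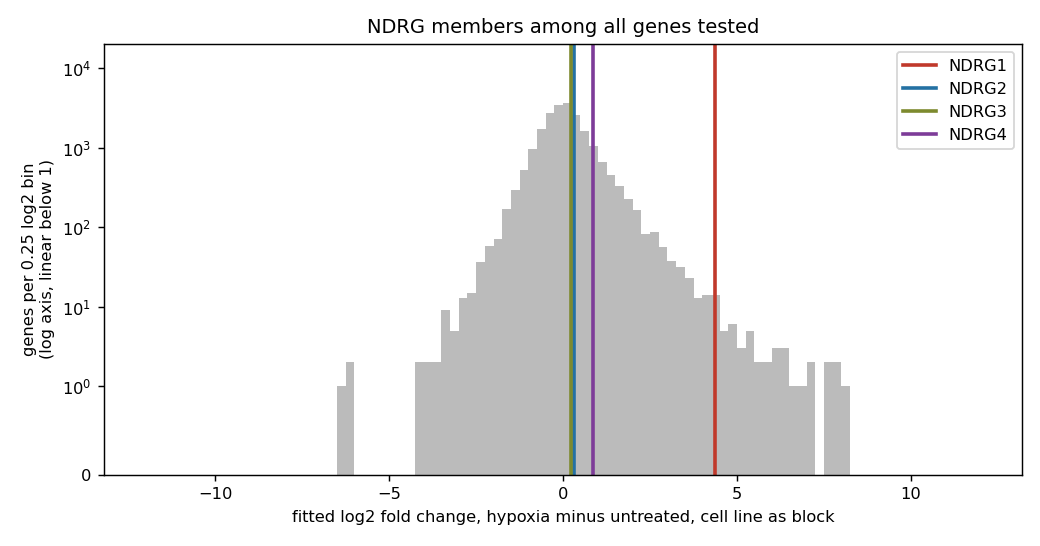
Distribution of fitted log2 fold changes (hypoxia minus untreated, cell line as block) over the 21045 genes tested, in bins of 0.25 with a log count axis; vertical lines mark the 4 members. NDRG1, at 4.37, lies in the sparse upper tail, and NDRG2, NDRG3 and NDRG4, at 0.31, 0.21 and 0.86, lie in the body of the distribution.

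A list of 20 other known hypoxia-induced genes gives the setting for NDRG1. Without the block 0 of 20 passed an adjusted p of 0.05 (0 of 21045 genes did, 0%, with 607 at an unadjusted p under 0.05). DESeq2 without the block called 8 of the 20, all higher, and 46 genes in all in that direction (0.219%). With the cell line as a block 12 of 20 were called higher and 0 lower, while 0.741% of all genes were called higher and 0.209% lower. DESeq2 with the same block called 18 of the 20, all higher (4.54% of all genes). The list's median fitted log2 fold change was 2.81 without the block and 2.57 with it. When HCT8 was left out, 3 of the 20 passed in the blocked fit, namely CA9, PFKFB4 and ALDOC, and only 6 genes were called in all. When DLD1 was left out 19 of the 19 that could be tested passed, with 292 genes called in all. When HCT116 was left out 15 of 19 passed, with 738 genes called in all.

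The genes of the list that passed with the block can be grouped by what they do. Among glycolytic genes, ALDOC (an aldolase) rose by a log2 fold change of 4.13 and ENO2 (an enolase) by 2.09, and PFKFB4 and PFKFB3, which set the level of fructose 2,6-bisphosphate, rose by 3.26 and 2.19. PDK1, which restrains pyruvate entry into mitochondria, rose 3.84, 6.46 and 15.7-fold in DLD1, HCT116 and HCT8 by column totals. The mitophagy receptor BNIP3 rose by a log2 fold change of 3.75, resting on HCT116 because the DLD1 and HCT8 libraries had 0 to 5 BNIP3 counts. P4HA1 and P4HA2, subunits of collagen prolyl hydroxylase, rose by 2.63 and 1.27, the histone demethylase KDM3A by 2.51 and the MYC antagonist MXI1 by 1.94. ANGPTL4, an inhibitor of lipoprotein lipase, rose by 5.38. CA9, a carbonic anhydrase that regulates pH, had the highest fitted change of the list, with 1 to 6 counts in the untreated libraries and 178 to 1039 under hypoxia. These edgeR calls had adjusted p-values from 0.000809 (PFKFB4 and ALDOC) to 0.0472 (P4HA2).

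Set beside this list, the NDRG1 ratio was exceeded by 4 of the 19 genes with counts in both libraries in DLD1 (CA9, PFKFB4, ANGPTL4 and ALDOC), by 4 of 19 in HCT116 (CA9, ADM, ANKRD37 and ANGPTL4) and by 3 of 18 in HCT8 (CA9, ANKRD37 and ANGPTL4). The genes left out of these counts were BNIP3 in DLD1, LOX in HCT116 and both in HCT8, where the untreated library had 0 counts. In DLD1 13 of 19 genes of the list were more than 2-fold higher by column totals, in HCT116 19 of 19 and in HCT8 18 of 18, against 11.2%, 12.4% and 14.4% of all genes. On the log2 scale the list's median ratio by line was 1.40 (DLD1), 2.97 (HCT116) and 2.46 (HCT8), so the line with the smallest NDRG1 ratio also had the smallest median of the list.

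**Figure D4:**
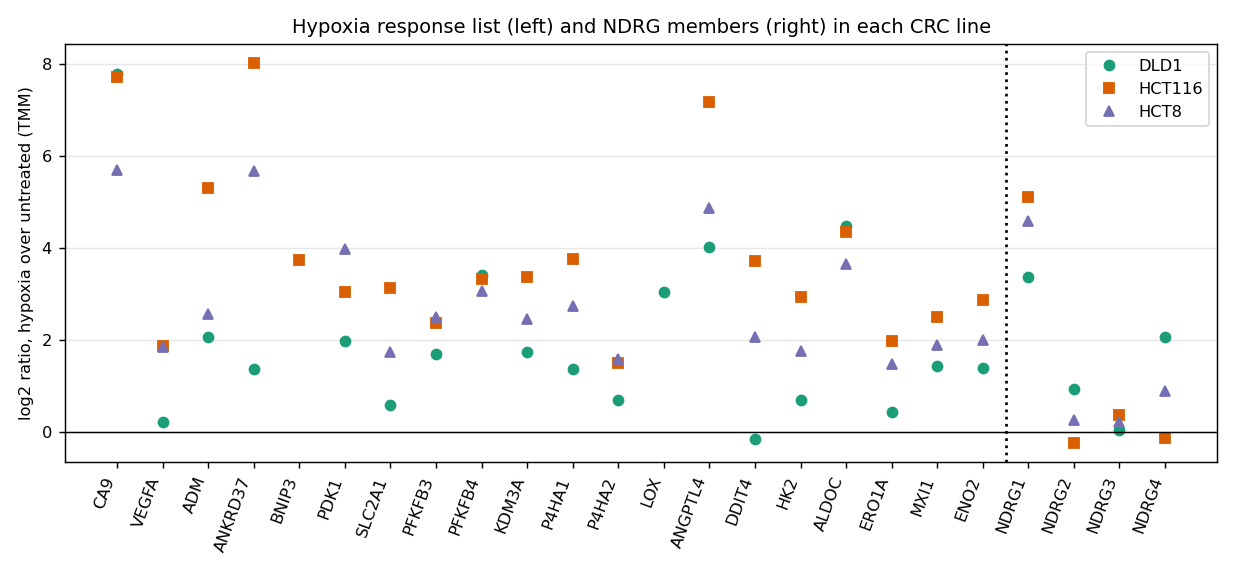
log2 ratio of hypoxia over untreated (TMM) for the 20 genes of the hypoxia response list, left of the dotted line, and the 4 NDRG members, right of it, with 1 symbol per CRC line; a gene without a symbol for a line had 0 counts in its untreated library. NDRG1 lies among the higher genes of the list in each line, at 3.37 to 5.11, and its paralogs lie between -0.25 and 2.06.

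Regulators of the family were examined as a second list of 19 transcription factors, oxygen sensors, kinases and lactate dehydrogenase subunits. SGK3 had too few counts to be tested. With the block 2 of 18 were called higher and 0 lower, while 0.741% of all genes were called higher and 0.209% lower. The list's median log2 fold change was 0.08 against 0.03 for all genes. EGLN3, an oxygen-sensing prolyl hydroxylase, rose by 3.66 (adjusted p = 0.000809, edgeR with the block), and without the block its adjusted p was 0.216. LDHA, the subunit of lactate dehydrogenase that favours lactate formation, rose by 2.59 (adjusted p = 0.00606), and without the block its adjusted p was 0.9999. EGLN3 was raised 10.1, 12.8 and 11.8-fold in DLD1, HCT116 and HCT8 by column totals, and LDHA 3.77, 6.05 and 7.14-fold. Without HCT8 the blocked fit called EGLN3 alone, so 1 of 18, and only 6 genes in all.

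The other regulators did not pass in the blocked edgeR fit. EGLN1, which encodes PHD2, had a log2 fold change of 1.48 and an adjusted p of 0.0533, and it passed when the scaling was changed to upper-quartile or column totals. Among known regulators of NDRG1 or its protein, HIF1A had a log2 fold change of -0.03, EPAS1 of 0.91, ARNT of 0.46 and SGK1 of -0.76. By column totals EPAS1 was 1.38, 2.18 and 1.66-fold higher in DLD1, HCT116 and HCT8, and DESeq2 with the block called it. MYC had -0.49 with the block and -0.02 without it, and by column totals it was lower in DLD1 and HCT8 (ratios of 0.793 and 0.319) and higher in HCT116 (1.06). DESeq2 with the block called 7 of the list, 5 of them higher and 2 lower (VHL and SGK1), against 4.54% and 3.38% of all genes. MYCN had 0 counts in NCM460, HIEC6 and both HCT116 libraries and 19 to 126 counts in the others. EGLN2, with 2 to 33 counts, and SGK3, with 0 to 8, each overlap a read-through gene in the annotation, and their counts are uncertain.

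In the untreated lines the comparison of CRC with normal asked whether the members differ between the lines labelled CRC and those labelled normal. NCM460 resembled HCT116 across genes (Pearson's r = 0.994), and HIEC6 had the highest mesenchymal marker sum (1416 CPM, mostly VIM). The contrast is thus one of labels and cannot be read as carcinoma against normal epithelium. The members were chosen from the hypoxia comparison, and the comparison of CRC with normal was tested. Its untreated CRC libraries were also an arm of the hypoxia comparison, and earlier results of these data were known. The test is therefore not independent of the choice of members. For all 4 members the adjusted p was 0.999 in the edgeR fit of 5 libraries, in which 0 of 19964 genes were called (0%, with 542 at an unadjusted p under 0.05, and DESeq2 called 131). DESeq2 called 0 of the 4 members, against 0.656% of all genes.

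NDRG1 was higher in NCM460 than in any untreated CRC line, at 608 CPM, whereas HIEC6 stood at 41.7 CPM, inside the range of the CRC lines. The 2 normal lines thus differed 14.6-fold from each other. The fitted log2 fold change (CRC minus normal) was -2.17 (SE 1.20), and without NCM460 it was 0.65 (SE 1.10), so that its direction rested on 1 library.

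NDRG1 in NCM460 also differed from HCT116, the library to which NCM460 was otherwise closest. The ratio of NCM460 to HCT116 was 4.06 (3.96 to 4.16), the 29th highest log2(CPM + 1) difference of 19580 genes. Between these libraries the median log2 ratio of the hypoxia response list was -0.01. Of its 19 genes with counts in both, 1, CA9, was more than 2-fold higher, and LOX, with 19 counts in NCM460 and 0 in HCT116, was higher as well, so that 2 of the 20 genes were, against 9.31% of all genes. The part of the run label that NCM460 shares with 2 hypoxia libraries in its NDRG1 value was not tested. Between the same libraries NDRG2 had a ratio of 0.932 (0.831 to 1.04), NDRG3 of 0.742 (0.700 to 0.787) and NDRG4 of 0.444 (0.369 to 0.532).

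NDRG3 stood at 39.6 CPM in NCM460 and 42.5 CPM in HIEC6, and all 3 untreated CRC lines lay above both, as they did for 13.2% of genes. Its fitted log2 fold change was 0.26 (SE 0.28), and it was positive in each alternative fit, from 0.14 to 0.46. NDRG2 was at 11.6 and 14.0 CPM in NCM460 and HIEC6, between the CRC lines, with a log2 fold change of -0.08 (SE 0.75) whose sign depended on the scaling.

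NDRG4 was at 3.46 CPM in NCM460 and at 0.0882 CPM, from 5 counts, in HIEC6. HIEC6 was also the library with the highest mesenchymal marker sum, which was mostly VIM, while COL1A2 and COL3A1 were lower there (0.458 and 1.16 CPM) than in NCM460 (7.99 and 3.98 CPM). The part of cell type in the NDRG4 value was not tested. The log2 fold change of NDRG4 was 1.42 (SE 1.8), and it ranged from 0.46 without HIEC6 to 5.57 without NCM460, and its lowest adjusted p over all alternatives was 0.367 (edgeR without NCM460).

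In the GENCODE annotation of GRCh37, NDRG1 lies at chr8:134249418-134314265 on the minus strand, NDRG2 at chr14:21484922-21539031 on the minus strand, NDRG3 at chr20:35280169-35374493 on the minus strand and NDRG4 at chr16:58496750-58547532 on the plus strand. Their canonical transcripts have 16, 16, 16 and 15 exons. NDRG2 shares 236 exon bases with TPPP2 on the opposite strand, which had 0 counts in all 8 libraries. How reads on these bases were assigned is not given in the sources used here. The other members share no exon bases with another annotated gene of the count table, and only genes of that table were checked for overlap.

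Compared per kilobase of the canonical transcript (3025, 2978, 2971 and 3208 nt for NDRG1 to NDRG4), which allows levels of different genes to be set side by side, NDRG3 was the leading member in HIEC6, untreated DLD1 and untreated HCT8, followed by NDRG1, NDRG2 and NDRG4. NDRG1 led in NCM460, untreated HCT116 and all 3 hypoxia libraries. NDRG1 made up 33.4% of the summed family level in untreated DLD1 and 82.3% under hypoxia, 66.8% and 98.3% in HCT116, and 34.1% and 91.1% in HCT8. In NCM460 its share was 91.7%, as high as in HCT8 under hypoxia, and in HIEC6 it was 42.0%.

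With the length of all annotated exons merged, which is 12002 nt for NDRG1 and 3260 nt for NDRG3, NDRG3 also led in untreated HCT116, at 52.3% against 39.9% for NDRG1. NDRG1 still led in the 3 hypoxia libraries and NCM460, and its share was larger under hypoxia in each line, at 12.7% and 58.5% in DLD1, 39.9% and 94.8% in HCT116, and 15.2% and 78.4% in HCT8. In bulk RNA these shares describe the family's pool over all cells, and more cells with the transcript and more transcript per cell cannot be told apart.

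**Figure D5:**
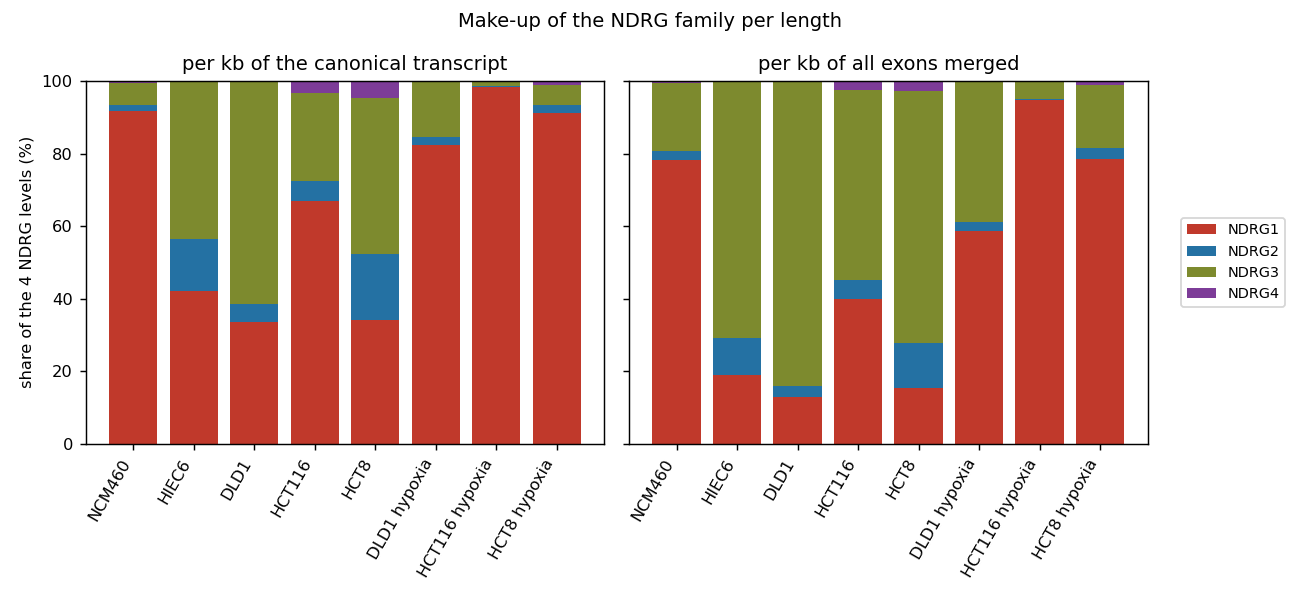
Share of each NDRG member (%) in the summed level of the family per kilobase, in each library, with the canonical transcript length (left) and the merged exon length (right). NDRG1 takes 82.3% to 98.3% of the bar in the hypoxia libraries on the left and 58.5% to 94.8% on the right.

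The spread of each member over all 8 libraries also differed. The root mean square distance of log2(CPM + 1) from the gene's own mean was 2.35 for NDRG1, 1.25 for NDRG4, 0.76 for NDRG2 and 0.24 for NDRG3. The profiles most like NDRG1 among 21647 genes, by the root mean square difference of centred log2(CPM + 1) over the 8 libraries, were those of the long non-coding RNA UCA1 (1.11), NYAP1 (1.11) and MXI1 (1.16), the last of which is in the hypoxia response list. Nearest to NDRG2 were TSPAN9, PROB1 and SSH3 (0.233 to 0.239), and nearest to NDRG4 were DNAH1, NRBP2 and DENND6B (0.238 to 0.356). Nearest to NDRG3 were SNORA50A, EIF2AK1 and RN7SL558P (0.0718 to 0.0949), of which SNORA50A and RN7SL558P stayed under 2 CPM in every library, where the pseudocount compresses differences. The distance of NDRG1 from NDRG2, NDRG3 and NDRG4 was 2.40, 2.32 and 1.94, against 2.35 from a flat profile.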

How the data were processed

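The authors aligned clean reads of RNA depleted of ribosomal RNA and deposited their raw gene-level counts (54261 genes in 8 columns, 0 columns left aside). The study's methods name GRCh37, while the submitters' processing notes list GRCh38 and HISAT2 2.0.4. The table has no coordinates, so positions come from GENCODE release 44 on GRCh37 and promoter windows from RefSeq on GRCh38.p14. The counter, its annotation, the use of strand and the treatment of reads with several matches are not given in the sources used here. Promoter windows of NDRG1 and NDRG3 and protein sequences were not analysed here.

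CPM was computed from column totals. Fits used edgeR 4.0.16 (quasi-likelihood test, TMM, Benjamini-Hochberg adjustment over all genes tested, threshold 0.05) under R 4.3.3. A gene was tested where 2 or more fitted libraries reached 10 counts, which all 4 members did in both comparisons. The SE of a fitted log2 fold change was derived from the F statistic (absolute change divided by the square root of F). DESeq2 1.42.0 and limma 3.58.1 were alternatives. The code was tested on simulated data. Counting intervals are exact (Clopper-Pearson, 95%), from SciPy 1.17.1. The replicate number is the cell line in the hypoxia comparison, so it pairs the libraries: deviations of same-line libraries correlated at 0.82 to 0.857, against -0.611 to -0.0599 between lines. The main fit has no block, and its p-values set the change against the spread between lines. With the block they set it against the spread of the hypoxia change between lines. The members and gene lists were chosen with earlier results of these data known. Genes of the lists are named where they passed with the block or were lowest or highest, where they exceeded NDRG1, or as known regulators, the last 2 kinds chosen after their values were seen, and each member has the 3 genes most like it. The values of 1 gene of the regulator list are not reported here.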

Additional observations from a re-analysis of the deposited data

Results flagged for a closer look

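NDRG2 had opposite directions in the CRC lines under hypoxia. By column totals its log2 ratio of hypoxia over untreated was 0.91 in DLD1, 0.25 in HCT8 and -0.61 in HCT116, and by TMM it was 0.94, 0.26 and -0.25. Each 95% counting interval, which covers counting error only, excluded 0. NDRG4 showed the same split by column totals, at 2.02 in DLD1, 0.87 in HCT8 and -0.48 in HCT116, while by TMM its HCT116 interval, -0.34 to 0.09, included 0. The difference between lines was not tested, because each line had 1 library per treatment.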

How the results depend on the processing

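In the hypoxia comparison the count of genes called was 0 without and 200 with the replicate block (172 with column totals, 215 with upper-quartile scaling, both added after seeing the data), 51 by DESeq2 and 1666 by DESeq2 with the block. For the regulator list the counts were 2 with the block and by DESeq2, 3 with the block under either other scaling, and 7 by DESeq2 with the block. Leaving out libraries or lines gave 0 to 738 genes called and 0 to 3 regulators, with 6 genes called in the blocked fit without HCT8, 292 without DLD1 and 738 without HCT116. The log2 fold change of NDRG1 then ranged from 3.15 (without HCT116 under hypoxia; 3.97 in the blocked fit without HCT116) to 5.93 (without untreated HCT116), that of NDRG2 from -0.46 to 0.85, that of NDRG3 from 0.11 to 0.30, that of NDRG4 from -0.15 to 1.34, and the median of the hypoxia response list from 1.86 to 3.08. In CRC against normal DESeq2 called 131 genes. NDRG2 turned to 0.029 with upper-quartile scaling and 0.15 with column totals. With 1 library left out, NDRG1 ranged from -3.21 to 0.65 and NDRG2 from -0.71 to 0.33. NDRG2 was positive there without HIEC6 or DLD1. A shared number pairs nothing between normal and CRC lines, and with it as a replicate block the 4 members stayed uncalled. NDRG4 could not be fitted with the filter of 10 counts in every library. The causes of these shifts were not tested. One library per line and treatment, and NDRG4 counts as low as 5, limit these values.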
